A study of Caenorhabditis elegans with 18 samples.

Results

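The comparison described here set Caenorhabditis elegans carrying the allele lin-65(n3441) against the N2 wild type, both fed bacteria with the empty RNAi vector. Its members were chosen by library title: 3 lin-65(n3441) and 3 N2 libraries, 6 of the 18 libraries of the series. The series measured polyA RNA of whole worms of 3 strains, the N2 wild type, met-2(ok2307) and lin-65(n3441), on empty vector or on bacteria with cco-1 RNAi, 3 libraries in each of 6 groups. All groups were grown from hatch at 20 °C and collected as L4 larvae, the last larval stage, and none of the 6 libraries compared carried an RNAi insert. Each mutant is represented by 1 allele, and the labels do not say whether the libraries of a group came from separate cultures, so the p-values measure the spread between these libraries, which may be technical.

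LIN-65 is a nuclear protein that works with MET-2, a methyltransferase acting on lysine 9 of histone H3, the mark of silent chromatin at the nuclear periphery. Both genes are known for their part in the mitochondrial unfolded protein response, in which worms under mitochondrial stress remodel chromatin and induce chaperone genes such as hsp-6. On empty vector no such stress is applied, so the comparison asks how the transcriptome of the lin-65 mutant differs before any stress.

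On empty vector, 214 of the 15110 genes tested, or 1.42%, differed between lin-65 and N2 at an adjusted p under 0.05 (edgeR's quasi-likelihood test, two-sided, Benjamini-Hochberg adjusted over all 15110 genes). Of these, 161 genes (1.07%) were higher in lin-65 and 53 (0.351%) were lower. The count depended on the libraries and the tool: 99, 106 and 134 genes were called without N2 replicates 2, 3 and 1, 136 without lin-65 replicate 3, 51 from the 6 libraries alone, 392 by DESeq2 and 1068 by limma voom with quality weights. The higher genes were led by F15D4.5, sri-62, ncs-6 and scrm-4, and included members of the col collagen, C-type lectin, pals and enu-3 families. The lower genes were led by the yolk protein genes vit-3, vit-4 and vit-5, by the collagen gene col-73, and by F59C6.18, R03D7.2, Y49G5A.1 and cin-4. No member of the lists of mitochondrial chaperones, respiratory chain subunits, heterochromatin factors, germline genes or cell type markers passed the edgeR test. By biotype, 203 of the called genes are protein coding, 6 are pseudogenes and 1 is a lincRNA in the annotation, and 4 could not be matched to it.

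The 3 N2 libraries held 7081672, 16006525 and 19261705 counts, and the 3 lin-65 libraries held 11930912, 16155922 and 12840000. The library lin-65 replicate 1 stood apart from the others. Its mean correlation with its group mates in log2 CPM was 0.920, against 0.943 to 0.978 for the other 5 libraries, and the first principal component of the 6 libraries, with 48.4% of the variance, separated it from the rest. The second component, with 23.7%, separated the strains. The strain field of lin-65 replicate 1 reads N2, while its title and source name read lin-65(n3441). Of 202 genes called without that library, it lay on the lin-65 side of the N2 mean in 197, and it lay nearer to its lin-65 mates than to N2 in 155. Its values rose for short transcripts: relative to its mates the median log2 deviation was 0.778 for transcripts up to 500 bases and -0.386 for those over 2000 and up to 4000 bases. Without it, 202 genes were called, 150 higher and 52 lower, and these held 120 of the 161 higher and 38 of the 53 lower genes. Levels below are in CPM, counts scaled by the effective library size, and are not corrected for transcript length, so they are compared between libraries and not between genes.

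The targeted gene lin-65 is annotated on chromosome I, 1755329 to 1766400 in the WBcel235 assembly. It stood at 12, 14.2 and 14.1 CPM in N2 replicates 1, 2 and 3 and at 6.53, 8.51 and 5.6 CPM in lin-65 replicates 1, 2 and 3. Every lin-65 library was below every N2 library. The log2 fold change was -0.96 ± 0.37 (SE), with an edgeR adjusted p of 0.329, which did not pass, and the adjusted p ran from 0.00481 to 0.608 over 16 alternative settings. The lesion of n3441 is not given in the sources used here, so the transcript level checks the labels only as far as the allele lowers the transcript. The partner gene met-2 read 37.1, 42.2 and 42.2 CPM in N2 and 36.7, 42.8 and 35.9 in lin-65, groups that overlap (log2 fold change -0.07 ± 0.33, edgeR adjusted p = 0.977).

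**Figure D1:**
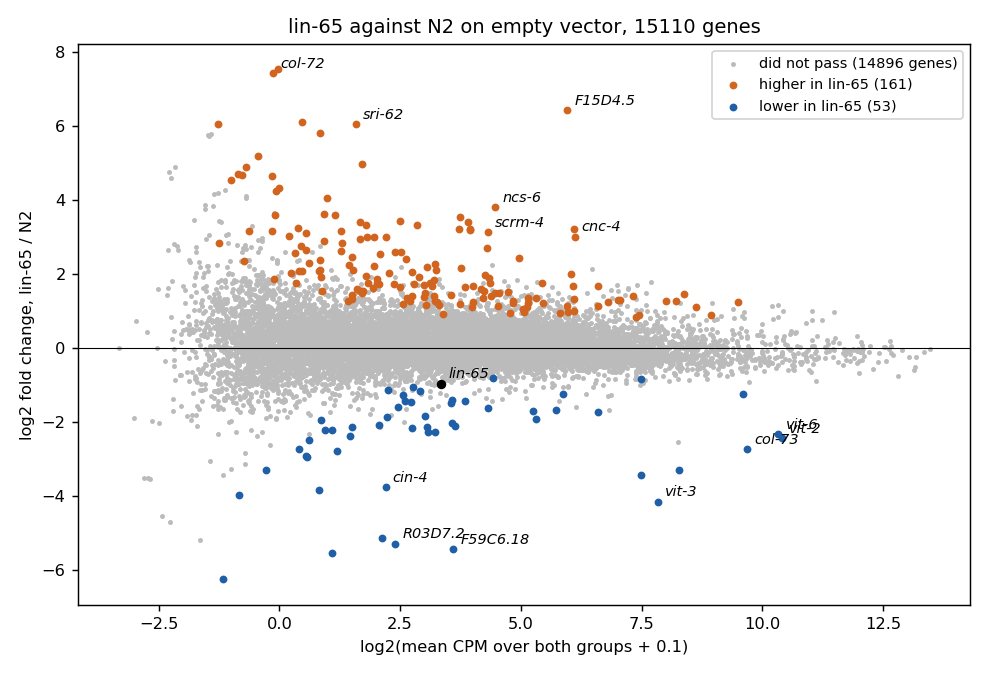
Log2 fold change of lin-65 over N2 on empty vector (vertical axis) against log2 of the mean CPM over both groups plus 0.1 (horizontal axis) for 15110 genes. Genes past the adjusted p of 0.05 are coloured (161 higher, 53 lower), lin-65 is black, and the vitellogenins and col-73 stand out as abundant genes that were lower.

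The sharpest separation of the groups was at F15D4.5, a protein-coding gene on chromosome II with no symbol in the annotation. It was counted 6, 18 and 35 times in the N2 libraries and 1316, 2075 and 1617 times in the lin-65 libraries, which is 0.890 to 1.91 CPM in N2 and 118 to 128 CPM in lin-65. The 3 lin-65 levels lay close together and far above all N2 levels, with a log2 fold change of 6.44 ± 0.30 (SE) and an edgeR adjusted p of 6.16e-10. Its neighbour F15D4.6 read 0.297, 0.881 and 0.381 CPM in N2 and 1.66, 2.67 and 4.31 in lin-65 (log2 fold change 2.39 ± 0.57, edgeR adjusted p = 0.0422). Leaving out N2 replicate 1 (adjusted p 0.141), 2 (0.0667) or 3 (0.247), or lin-65 replicate 2 (0.0728) or 3 (0.182), ended that call.

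Among genes with a symbol, sri-62, of the serpentine receptor family of presumed chemoreceptors, had the largest rise of those averaging at least 5 CPM in the higher group. It was counted 1, 2 and 0 times in the N2 libraries and 45, 130 and 71 times in the lin-65 libraries, with a log2 fold change of 6.05 ± 0.70 (edgeR adjusted p = 0.000118). The gene is thus close to absent from the N2 libraries and present in every lin-65 library. ncs-6, of the neuronal calcium sensor family, read 3.41, 3.18 and 2.29 CPM in N2 and 36, 39.8 and 47.2 in lin-65. All 3 lin-65 values were higher, and the log2 fold change was 3.81 ± 0.25 (edgeR adjusted p = 1.3e-07). scrm-4, of the phospholipid scramblase family, read 3.56, 4.00 and 4.58 CPM in N2 against 23.7, 41.6 and 41.5 in lin-65, again with no overlap (log2 fold change 3.12 ± 0.24, edgeR adjusted p = 5.96e-07). mihp-1 rose by a log2 fold change of 3.34 ± 0.34 and far-3, of the fatty acid and retinol binding proteins that nematodes secrete, by 3.22 ± 0.43. For far-3 the highest lin-65 value, 36.3 CPM, came from replicate 1, and the other 2 libraries read 16.6 and 17.2 CPM against 1.42 to 3.56 in N2. nspe-4, of a nematode-specific peptide family, rose by 2.99 ± 0.42, and tbb-6, a beta tubulin, by 2.06 ± 0.31. rrf-2, of the RNA-dependent RNA polymerases that make small RNAs in worms, read 1.93, 0.745 and 1.47 CPM in N2 and 6.04, 7.38 and 5.22 in lin-65 (log2 fold change 2.22 ± 0.36, edgeR adjusted p = 0.00279). It was the only 1 of the 41 tested members of the small RNA list to pass with edgeR, where 1.07% of all genes were higher. Of the 41, 3 had an unadjusted p under 0.05, against 1555 of all 15110 genes. DESeq2 called 1 and voom 5, against 392 and 1068 of all genes. The edgeR calls of the genes named in this paragraph held whichever of the 6 libraries was left out.

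**Figure D2:**
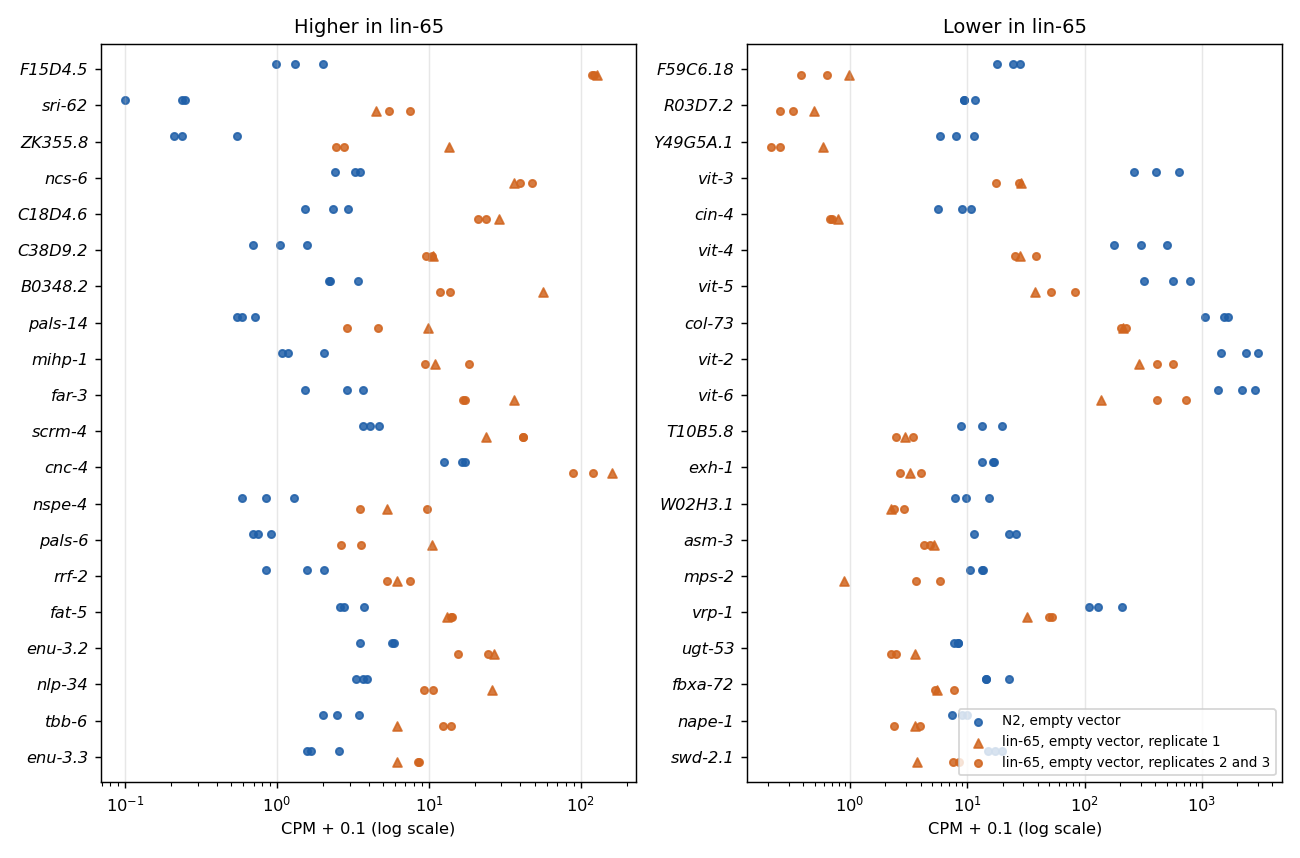
Level in each library, as CPM plus 0.1 on a log axis, of the 20 most raised (left) and 20 most lowered (right) genes under the naming rule, N2 in blue and lin-65 in orange, with lin-65 replicate 1 as a triangle. The groups do not overlap in any row, as the rule requires, and replicate 1 lies well above its mates in B0348.2, ZK355.8 and nlp-34.

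Defence genes were represented by few members. cnc-4, a caenacin, a small antimicrobial peptide of the epidermis, read 16.3, 17.1 and 12.4 CPM in N2 and 160, 89 and 120 in lin-65. Every lin-65 library was above every N2 library, with a log2 fold change of 3.01 ± 0.40 (edgeR adjusted p = 0.000385). nlp-34, an antimicrobial peptide gene of the neuropeptide-like class, read 3.56, 3.79 and 3.21 CPM in N2 and 25.9, 9.19 and 10.5 in lin-65 (log2 fold change 2.1 ± 0.48, edgeR adjusted p = 0.0338). Its highest value came from replicate 1, and without that library the adjusted p was 0.140. It was also lost without N2 replicate 1 (0.110), 2 (0.149) or 3 (0.167). With edgeR these were the only 2 of the 29 tested members of the innate immune list to pass, both higher, where 1.07% of all genes were higher. DESeq2 and voom called 3 each, against 392 and 1068 of all 15110 genes. Without lin-65 replicate 1 edgeR called 1, where it called 202 of all 15110 genes. With all libraries the median log2 fold change of the list was 0.15 against 0.06 over all genes tested. The summed level of the 34 listed immune genes was 2810 to 3240 CPM in N2 and 2280 to 4530 CPM in lin-65, so the sums overlapped. Of 129 tested C-type lectins, a family of carbohydrate-binding proteins that worms use in defence among other roles, 7 were higher with edgeR, against 1.07% of all genes, none was lower, and the median was 0.33. Without lin-65 replicate 1 the lectins had 5 higher members and a median of 0.16. That fit had 150 of all 15110 genes higher and a median of 0.02.

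The pals genes are a worm family of which some members are induced by intracellular pathogens. Of 25 tested, 3 were higher, against 1.07% of all genes, none was lower, and the median log2 fold change was 0.76. Without lin-65 replicate 1, 2 were higher and the median was 0.58. That fit had 150 of all 15110 genes higher and a median of 0.02. In 11 of the 25 every lin-65 library was above every N2 library, against 7.6% of all genes tested. pals-14 read 0.445, 0.610 and 0.490 CPM in N2 and 9.74, 2.78 and 4.54 in lin-65 (log2 fold change 3.40 ± 0.50, edgeR adjusted p = 0.00105). pals-6, its neighbour on chromosome I, read 0.593, 0.813 and 0.654 CPM in N2 and 10.4, 2.55 and 3.48 in lin-65 (log2 fold change 2.94 ± 0.57, edgeR adjusted p = 0.0107). In both genes all lin-65 libraries were above N2, and replicate 1 was the highest. The pals-6 call was lost without N2 replicate 1 (adjusted p 0.0527), 2 (0.0601) or 3 (0.0842). pals-33, on chromosome V, rose by 3.04 ± 0.71 (edgeR adjusted p = 0.0393) and lost its call without N2 replicate 1 (0.0571), 2 (0.156) or 3 (0.255) and without lin-65 replicate 1 (0.0751) or 3 (0.104). The summed level of the 36 listed pals genes was 68.6 to 75.8 CPM in N2 and 79.6 to 134 CPM in lin-65, with replicate 1 the highest.

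In the F-box family, whose members recruit proteins for ubiquitin tagging, 5 of 135 tested genes were higher and 1 was lower, against 1.07% and 0.351% of all genes. Leaving out lin-65 replicate 1 left 3 higher and 1 lower and moved the median from 0.19 to 0.08. Over all 15110 genes that fit had 150 higher and 52 lower genes and a median of 0.02. Of the 64 tested genes with MATH or BTB domains, which serve as adaptors in the same system, 2 were higher, and 1 without lin-65 replicate 1, against 1.07% of all genes with all libraries. bath-45 read 0.445, 0.678 and 0.272 CPM in N2 and 5.65, 3.92 and 2.95 in lin-65 (log2 fold change 3.15 ± 0.43, edgeR adjusted p = 0.000487). The lower F-box gene, fbxa-72, read 14.4, 14.3 and 22.5 CPM in N2 and 5.46, 7.66 and 5.22 in lin-65 (log2 fold change -1.48 ± 0.27, edgeR adjusted p = 0.0068, or 0.062 without N2 replicate 3). Groups did not overlap in either gene.

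Of the enu-3 genes, a family known by its shared symbol and grouped here after its values were seen, 4 of 5 tested members were higher. Over all genes 1.07% were higher. Without lin-65 replicate 1 the family had 3 higher members, where 150 of all 15110 genes were higher. enu-3.1 read 8.01, 8.67 and 6.43 CPM in N2 and 32.1, 25.5 and 33.8 in lin-65 (log2 fold change 1.98 ± 0.23, edgeR adjusted p = 0.000118). enu-3.2 rose by 2.17 ± 0.28 and enu-3.3 by 2.03 ± 0.30. enu-3.6 rose by 1.48 ± 0.30 (edgeR adjusted p = 0.0159) and lost its call without N2 replicate 1 (0.0571), 2 (0.0786) or 3 (0.0947) or lin-65 replicate 1 (0.0598). The fifth member, enu-3.5, read 0.890, 1.36 and 1.04 CPM in N2 and 1.85, 4.48 and 4.39 in lin-65 and did not pass (adjusted p = 0.137). Similar copies may share reads in these counts, so the members are not independent of each other.

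The vitellogenins encode the yolk lipoproteins that the intestine makes for the oocytes. Of 6 members tested, 5 were lower in lin-65, against 0.351% of all genes, and none was higher, and the median log2 fold change was -2.92. Without lin-65 replicate 1, 3 of the 6 were called and the median was -2.65. That fit had 52 of all 15110 genes lower and a median of 0.02. In all 6, every lin-65 library was below every N2 library, a pattern seen in the same direction in 6.0% of all genes tested. vit-2, whose product is loaded into oocytes, read 1470, 3020 and 2380 CPM in N2 and 293, 564 and 411 in lin-65 (log2 fold change -2.44 ± 0.49, edgeR adjusted p = 0.0129). vit-6, which encodes a precursor cleaved into smaller yolk proteins, read 1370, 2860 and 2220 CPM in N2 and 138, 733 and 414 in lin-65 (log2 fold change -2.33 ± 0.55, edgeR adjusted p = 0.0398). The near-identical genes vit-3, vit-4 and vit-5 fell by 4.16 ± 0.53, 3.43 ± 0.49 and 3.29 ± 0.51 on the log2 scale, with edgeR adjusted p of 0.000282, 0.000792 and 0.00184. How the counting split reads between these copies is not given, so their separate values are uncertain. The last member, vit-1, read 229, 708 and 629 CPM in N2 and 23.5, 156 and 87.9 in lin-65 and did not pass (log2 fold change -2.55 ± 0.66, adjusted p = 0.0703).

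Summed over the 6 genes, the yolk transcripts were 3830, 8520 and 6520 CPM in N2 and 549, 1600 and 1010 CPM in lin-65. The lowest N2 library was above the highest lin-65 library. The calls of vit-3, vit-4 and vit-5 held whichever library was left out. The call of vit-2 was lost without N2 replicate 2 (adjusted p 0.0699), lin-65 replicate 1 (0.0535) or lin-65 replicate 3 (0.071), and that of vit-6 without N2 replicate 2 (0.177) or 3 (0.122) or lin-65 replicate 1 (0.0925) or 3 (0.148). Yolk transcripts appear as worms near adulthood, and other transcripts of that stage and of the yolk-making tissue are given beside them. Of 9 tested adult cuticle collagens none passed (0 at an unadjusted p under 0.05, 0 with DESeq2 and voom). Their median was -0.39 and 7 were below 0, against 44.2% of all genes. Without lin-65 replicate 1 the median was -0.48 and 8 were below 0, against 48.4% of all genes. Their sum was 5250 to 8750 CPM in N2 and 5100 to 5720 CPM in lin-65, with N2 replicate 2 the highest in both this sum and the yolk sum. Of 23 tested oocyte and eggshell genes none passed and 16 were below 0, with sums of 3490 to 5320 CPM in N2 and 3330 to 4380 CPM in lin-65. Of 13 tested intestine markers none passed and 4 were below 0, with sums of 7960 to 11100 CPM in N2 and 8210 to 11700 CPM in lin-65. The part of worm stage in the fall of the yolk transcripts was not tested. In whole worms fewer cells of a type and less RNA per cell cannot be told apart.

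**Figure D3:**
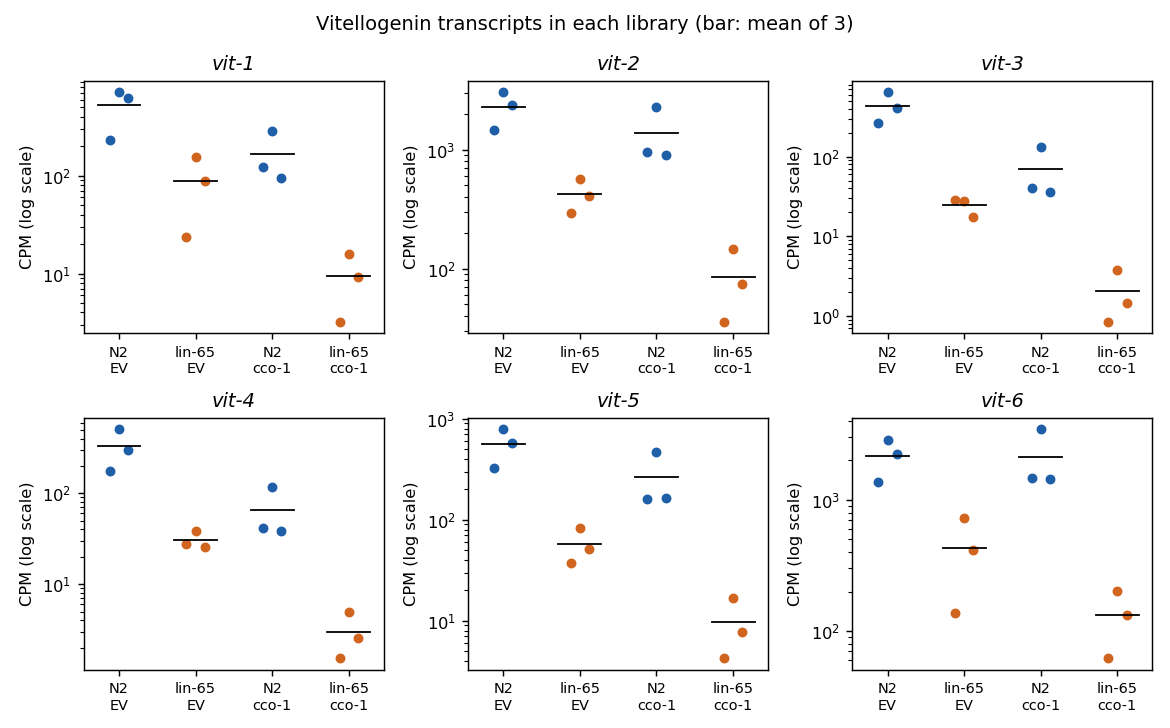
CPM of the 6 vitellogenin genes on a log axis in the 3 libraries of N2 and lin-65 on empty vector (EV) and on cco-1 RNAi, with replicates 1 to 3 from left to right in each group and a bar at the mean. In each panel the 3 lin-65 libraries lie below the 3 N2 libraries of the same diet.

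Cuticle collagens moved in both directions. Of 128 tested col genes 11 were higher and 1 was lower, against 1.07% and 0.351% of all genes, with a median log2 fold change of 0.34. col-73 was the lower member and one of the most abundant genes called: it read 1680, 1060 and 1550 CPM in N2 and 211, 206 and 225 in lin-65. The lin-65 libraries were tightly grouped and far below N2 (log2 fold change -2.74 ± 0.23, edgeR adjusted p = 1.43e-06), and the call held without any of the 6 libraries. col-72, also on chromosome II, had 0 counts in all 3 N2 libraries and 16, 37 and 16 counts in the lin-65 libraries, so its mean level of 1.62 CPM was at least 21.6-fold higher than the floor of 3 counts over the N2 group. The higher col genes also included col-33 (1.71 ± 0.33, edgeR adjusted p = 0.0106) and col-89 (1.54 ± 0.30, adjusted p = 0.0117). Those calls were lost without N2 replicate 1 (col-33, 0.0514), 2 (col-33, 0.0522; col-89, 0.0926) or 3 (col-33, 0.0781; col-89, 0.0909). Without lin-65 replicate 1, 7 col genes were higher, 2 were lower and the median was 0.12. Over all 15110 genes that fit had 150 higher and 52 lower genes and a median of 0.02. The 21 tested furrow and other larval collagens had a median of -0.16 and no member past the edgeR test. Of these 21, 2 had an unadjusted p under 0.05, against 1555 of all 15110 genes. DESeq2 called 0 and voom 4, against 392 and 1068 of all genes, and edgeR called 1 as higher without lin-65 replicate 1.

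Metabolic genes gave few calls. fat-5, which encodes a desaturase acting on palmitoyl-CoA, read 2.67, 3.66 and 2.51 CPM in N2 and 13, 14 and 13.9 in lin-65. All lin-65 libraries were higher and close together (log2 fold change 2.2 ± 0.40, edgeR adjusted p = 0.00689, or 0.0653 without N2 replicate 3). It was the only 1 of 32 tested genes of fatty acid metabolism to pass with edgeR, where 1.07% of all genes were higher. Of the 32, 5 had an unadjusted p under 0.05, against 1555 of all 15110 genes. DESeq2 called 1 and voom 3, against 392 and 1068 of all genes. fat-7, a stearoyl-CoA desaturase gene, read 6.82, 8.40 and 17.8 CPM in N2 and 19.8, 26 and 27.6 in lin-65 without passing (log2 fold change 1.14 ± 0.33, adjusted p = 0.123). Among the lower genes were asm-3, an acid sphingomyelinase, at 11.4, 26 and 22.4 CPM in N2 and 5.07, 4.20 and 4.69 in lin-65 (log2 fold change -2.11 ± 0.50, edgeR adjusted p = 0.0399). Leaving out any of the libraries but N2 replicate 1 ended that call, with adjusted p of 0.187 and 0.147 without N2 replicates 2 and 3 and of 0.0751, 0.115 and 0.145 without lin-65 replicates 1, 2 and 3. ugt-53, a UDP-glucuronosyltransferase of the conjugating enzymes, fell by 1.60 ± 0.30 on the log2 scale (edgeR adjusted p = 0.00792, or 0.060 without lin-65 replicate 3). nape-1, a phospholipase D that releases N-acylethanolamines, fell by 1.43 ± 0.27 (edgeR adjusted p = 0.00894, or 0.0545 without N2 replicate 2 and 0.0654 without lin-65 replicate 3).

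The nuclear-encoded respiratory chain had no member past the test among 37, but 32 log2 fold changes were below 0, against 44.2% of all genes tested. The median was -0.30, against 0.06 over all genes. In 17 of the 37 genes every lin-65 library was below every N2 library, against 6.0% of all genes tested. The sum over the list was 20700 to 23200 CPM in N2 and 15500 to 17400 CPM in lin-65, with no overlap. atp-2, a subunit of the ATP synthase, read 6300, 4520 and 4280 CPM in N2 and 3400, 2850 and 3180 in lin-65 (log2 fold change -0.68 ± 0.21, adjusted p = 0.159). ucr-11, of the ubiquinol-cytochrome c reductase complex, had the smallest p of the list (log2 fold change -1.05 ± 0.27, adjusted p = 0.0671). cox-5B, the target of cco-1 RNAi, read 741, 754 and 658 CPM in N2 and 730, 538 and 490 in lin-65, which overlap (log2 fold change -0.29 ± 0.22, adjusted p = 0.753). Without lin-65 replicate 1 the median of the list was -0.39 and no member passed. With all libraries 11 of the 37 had an unadjusted edgeR p under 0.05, against 1555 of all 15110 genes. DESeq2 called 6 and limma voom with quality weights 7, against 392 and 1068 of all genes.

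The tricarboxylic acid and glyoxylate cycles showed values of the same kind, with 23 of 25 log2 fold changes below 0, against 44.2% of all genes. Their median was -0.24, with and without lin-65 replicate 1. In 10 genes every lin-65 library was lower, against 6.0% of all genes. None passed the edgeR test (4 at an unadjusted p under 0.05, 1 called by DESeq2 and 2 by voom). Of 17 tested genes of the propionate shunt and vitamin B12 metabolism, 16 were below 0 and 7 were lower in every lin-65 library, against 44.2% and 6.0% of all genes. Without lin-65 replicate 1, 14 were below 0, against 48.4% of all genes, and the median moved from -0.325 to -0.185. None passed with edgeR (3 at an unadjusted p under 0.05, 0 called by DESeq2 and 2 by voom). The cytosolic ribosomal proteins had a median of -0.12 with all libraries and of -0.42 without lin-65 replicate 1, and none of the 76 passed with edgeR in either. With all libraries 3 had an unadjusted p under 0.05, and DESeq2 called 1 and voom 2. Over all 15110 genes these counts were 1555, 392 and 1068.

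The genes of the mitochondrial unfolded protein response did not pass on empty vector. hsp-6, the mitochondrial HSP70 chaperone, read 214, 317 and 324 CPM in N2 and 165, 426 and 339 in lin-65 (log2 fold change 0.12 ± 0.42, adjusted p = 0.970). hsp-60, the mitochondrial chaperonin, read 540, 462 and 529 CPM in N2 and 715, 439 and 454 in lin-65 (0.07 ± 0.20, adjusted p = 0.958). The groups overlapped for both, and the sign of each change depends on single libraries: hsp-6 was at -0.05 without N2 replicate 1 and -0.18 without lin-65 replicate 2, and hsp-60 was at -0.19 without lin-65 replicate 1. Of 13 tested mitochondrial chaperones and proteases and 12 tested regulators of the response none passed with edgeR. An unadjusted p under 0.05 was reached by 0 and 1 of them, the 1 being lin-65 itself. DESeq2 called 0 in both lists, and voom called 0 and 1. Of 21 heterochromatin and nuclear periphery genes none passed with edgeR. The 1 with an unadjusted p under 0.05 was lin-65 itself, DESeq2 called 0 and voom 1. lin-65, arle-14 and hpl-1 were the 3 with every lin-65 library below N2, against 6.0% of all genes tested. In 1 member every lin-65 library was above N2, against 7.6% of all genes tested. Of 19 synMuv B and DREAM genes, a class of chromatin regulators, none passed with edgeR, 2 had an unadjusted p under 0.05, and DESeq2 and voom called 2 each. Over all 15110 genes 1555 had an unadjusted p under 0.05, and DESeq2 called 392 and voom 1068. lin-8 read 6.53, 10.8 and 7.95 CPM in N2 and 13.8, 18.8 and 14.1 in lin-65 (log2 fold change 0.88 ± 0.23, adjusted p = 0.0783), and lin-15B, which encodes a nuclear protein with a role in keeping germline genes silent in the soma, read 16.6, 20.3 and 16.9 against 29.2, 38.3 and 32.9 (0.90 ± 0.25, adjusted p = 0.0898).

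Germline genes and the 9 cell type marker lists gave no calls with edgeR or DESeq2. Voom called 2 germ granule and meiotic genes, 1 sperm gene, 1 germline marker and 1 coelomocyte marker, and the unadjusted edgeR p was under 0.05 in 3, 1, 1 and 1 genes of those lists, in 3 pharynx markers and in 1 intestine marker. Over all 15110 genes voom called 1068, and 1555 had an unadjusted edgeR p under 0.05. The 39 tested germ granule and meiotic genes had a median log2 fold change of -0.06 and the 11 germline markers one of -0.12. The 29 tested major sperm protein genes had a median of 0.33 with all libraries and of -0.17 without lin-65 replicate 1, whose summed level was 4280 CPM against 2260 to 3590 CPM in N2 and 2450 and 2570 CPM in the other 2 lin-65 libraries. The medians of the marker lists for muscle, pharynx, intestine, neurons, hypodermis, coelomocytes and gonad sheath lay between -0.16 and 0.27.

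Some genes went from a few counts to a clear level or back. Y82E9BR.17 had 0 counts in all 3 N2 libraries and 25, 28 and 17 in the lin-65 libraries, at least 23.5-fold higher against the floor of 3 counts over the group (edgeR adjusted p = 0.000236). F07E5.9 was counted 0, 0 and 1 times in N2 and 14, 17 and 19 times in lin-65, and Y53G8AL.3 0, 1 and 1 times in N2 and 48, 53 and 30 times in lin-65. Both passed the test with every library left out in turn. In the other direction, Y69A2AR.12 was counted 26, 79 and 48 times in N2 and 2, 0 and 1 times in lin-65 (log2 fold change -5.54 ± 0.69, edgeR adjusted p = 0.000236). Y47D7A.9 was counted 9, 38 and 12 times in N2 and 0 times in all lin-65 libraries, at least 20.8-fold lower, but fell under the filter on low counts and was not tested. Of the 20505 gene models, 20 had at most 3 counts in every library of one strain and at least 1 CPM on average in the other. Of these, 18 were near 0 in N2 and 2 in lin-65. Among those near 0 in N2, fbxa-166 (edgeR adjusted p 0.165), grl-23 (0.405), sri-5 (0.458), cnc-7 (0.112), M162.15 (0.0535), R03H10.5 (0.0596) and ZK218.7 (0.102) did not pass. In lin-65 replicates 1, 2 and 3, grl-23 was counted 30, 6 and 4 times and cnc-7 36, 9 and 7 times.

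Among genes averaging at least 5 CPM in N2, the strongest falls outside the yolk genes were at F59C6.18, R03D7.2 and Y49G5A.1. F59C6.18, on chromosome I, read 24.3, 17.7 and 28.2 CPM in N2 and 0.877, 0.284 and 0.530 in lin-65 (log2 fold change -5.44 ± 0.45, edgeR adjusted p = 1.43e-06). R03D7.2, on chromosome II, read 9.34, 11.5 and 9.32 CPM in N2 and 0.390, 0.227 and 0.151 in lin-65 (-5.30 ± 0.40, edgeR adjusted p = 5.96e-07). Y49G5A.1, on chromosome V, read 7.86, 5.69 and 11.4 CPM in N2 and 0.487, 0.113 and 0.151 in lin-65 (-5.15 ± 0.60, edgeR adjusted p = 0.000118). In each gene the lin-65 libraries were all near 0 while the N2 libraries were not. cin-4, a topoisomerase II-like gene, read 5.49, 10.7 and 8.88 CPM in N2 and 0.682, 0.567 and 0.606 in lin-65 (-3.76 ± 0.53, edgeR adjusted p = 0.000648). exh-1 read 16.3, 13.3 and 16.7 CPM in N2 and 3.12, 2.55 and 3.94 in lin-65 (-2.27 ± 0.29, edgeR adjusted p = 0.000312). swd-2.1, a subunit of the histone H3 lysine 4 methyltransferase complex, read 17.2, 19.7 and 14.9 CPM in N2 and 3.61, 7.38 and 8.40 in lin-65 (-1.41 ± 0.30, edgeR adjusted p = 0.0235). That last call was lost without N2 replicate 1 (0.062), 2 (0.121) or 3 (0.0502) or lin-65 replicate 1 (0.0616), and the other 5 held without any of the 6 libraries.

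Several called genes lay near each other. With a rule chosen after the calls were seen, called genes whose annotated bodies lay within 20 kb of the next were joined, which put 67 of the 210 called genes with a position into 30 runs, 6 of them with 3 genes or more. Some runs also hold tested genes that were not called. In 22 runs all called genes moved the same way, and in 8 they did not. Since 161 of the 214 called genes were higher, runs of the same direction are common from that alone. Neither this count nor that of genes in runs was set against placement without regard to position. The run with the most called genes lay on chromosome II, 3516003 to 3528516 in WBcel235, where all 4 tested genes were higher: clec-125 and clec-126, which encode lectins, col-72 and ncs-6, with log2 fold changes of 2.29 ± 0.55, 4.07 ± 0.58, 7.44 ± 0.99 and 3.81 ± 0.25. The fitted value of col-72 is not a bound, since its N2 libraries are at 0. The tested genes just outside, cyh-1 and apd-3, had log2 fold changes of 0.41 ± 0.61 and 0.38 ± 0.26 and did not pass. The clec-125 call was lost without N2 replicate 1 (adjusted p 0.141), 2 (0.152) or 3 (0.199) and without lin-65 replicate 2 (0.153) or 3 (0.103).

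On chromosome V, exh-1, C36C5.12 and C36C5.14, the only tested genes between 3157086 and 3165538, were all lower, by -2.27 ± 0.29, -2.78 ± 0.50 and -3.99 ± 0.86. The next gene, C36C5.15, was at -4.72 ± 1.67 without passing (adjusted p = 0.287), and the genes beyond it and before exh-1 were near 0, with Y73C8B.3 at -0.01 ± 0.33 and F02C9.1 at 0.19 ± 0.25. The C36C5.14 call was lost without N2 replicate 1 (0.0538) or 3 (0.179) and without lin-65 replicate 1 (0.0805), 2 (0.0943) or 3 (0.0969). On chromosome II, fbxa-158, C08E3.13 and C08E3.1 rose by 4.34 ± 0.78, 2.71 ± 0.45 and 2.54 ± 0.60, beside fbxa-166 and fbxa-165 at 2.70 ± 0.85 and 4.27 ± 1.19 without passing. The fbxa-158 call was lost without N2 replicate 3 (0.0579), and the C08E3.1 call without N2 replicate 1 (0.128) or 2 (0.209) or lin-65 replicate 1 (0.0925) or 3 (0.109). Reads shared between similar neighbours, or between overlapping genes on opposite strands, could enter such runs, and their part was not tested.

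**Figure D4:**
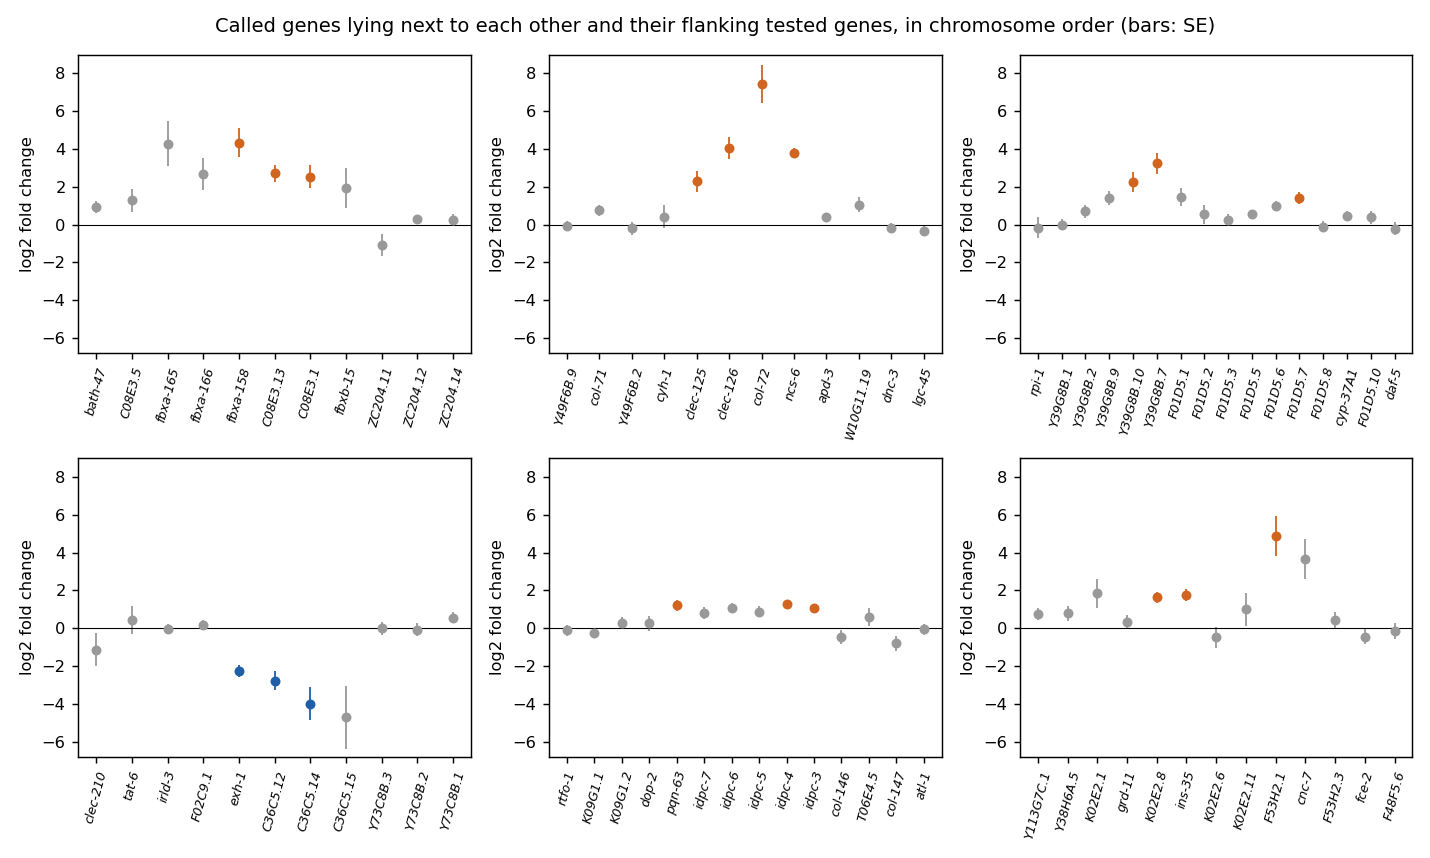
Log2 fold change of lin-65 over N2 with its SE for the 6 runs of 3 or more called genes and up to 4 tested genes on each side, in chromosome order; called genes are orange (higher) or blue (lower) and the rest grey. In the runs of clec-125 to ncs-6, of fbxa-158 to C08E3.1 and of exh-1 to C36C5.14 every tested gene inside is called.

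By chromosome, 2.16% of the tested genes of chromosome V were called (50 higher, 15 lower), 1.91% of chromosome II, 1.31% of chromosome IV, 1.23% of chromosome I, 0.805% of chromosome X and 0.701% of chromosome III. A strain can differ from N2 around the mutated gene, so the surroundings of lin-65 were counted as well. Within 1 Mb of lin-65, 1 of 225 tested genes was called (0.444%), within 2 Mb 4 of 472 (0.847%) and within 5 Mb 9 of 1078 (0.835%), all higher. These shares are under the 1.42% of all genes.

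The same strains on cco-1 RNAi, which lowers a subunit of cytochrome c oxidase, give 6 libraries whose levels are not part of the contrast above. They did enter its fit, through the filter and the shared estimate of the spread, so the calls on both diets are not fully separate. There, 168 of 15110 genes (1.11%) differed between lin-65 and N2. Of the 161 genes higher on empty vector, 146 were above 0 on cco-1 RNAi against 50.9% of all genes, 64 passed there in the same direction against 0.635% of all genes, and none passed in the opposite one. Of the 53 lower genes, all 53 were below 0 against 49.1% of all genes, 26 passed against 0.477% of all genes, and none passed the other way. The 3 lin-65 libraries lay wholly above the 3 N2 libraries in 118 of the 161 higher genes, where 14% of all genes did, and wholly below in 50 of the 53 lower genes, where 12.8% of all genes did. The median log2 fold change of the higher genes was 1.86 on empty vector, which chose them, and 1.33 on cco-1 RNAi, and that of the lower genes was -2.14 and -1.71.

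On cco-1 RNAi, F15D4.5 read 2.11, 2.18 and 1.89 CPM in N2 and 133, 119 and 96.9 in lin-65 (log2 fold change 5.82 ± 0.29, edgeR adjusted p = 1.87e-09). col-73 read 1630, 1290 and 1530 CPM in N2 and 208, 221 and 237 in lin-65, a log2 fold change of -2.74 ± 0.23 as on empty vector (edgeR adjusted p = 1.33e-06). The lin-65 libraries were again apart from N2 in both genes. All 6 vitellogenins passed as lower, with a median of -4.26, and the yolk sum was 2650 to 6730 CPM in N2 and 108 to 391 CPM in lin-65. The adult cuticle collagens had a median of -0.94 there, and their sum was 4130 to 7270 CPM in N2 and 2540 to 3940 CPM in lin-65, so these sums did not overlap either. The part of worm stage was not tested on this diet. bath-45 read 0.506, 0.364 and 0.307 CPM in N2 and 13.6, 16.6 and 14.1 in lin-65 (log2 fold change 5.23 ± 0.44, edgeR adjusted p = 1.42e-06). The col genes, of which 11 were higher on empty vector, had 1 higher and 5 lower members on cco-1 RNAi and a median of -0.22. The enu-3 genes had the same count of 4 higher members as on empty vector. Over all genes 0.635% were higher and 0.477% lower on this diet.

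The test of the difference in the strain effect between diets called 0 of 15110 genes (0.0%) with edgeR, with 480 genes at an unadjusted p under 0.05; DESeq2 called 6 and limma voom with quality weights 33. The smallest adjusted p was 0.130. catp-3, a cation-transporting ATPase gene, read 6.82, 9.42 and 9.21 CPM in N2 and 26.1, 35.9 and 33.9 in lin-65 on empty vector, but 26, 42.2 and 27.8 in N2 and 22.9, 32.4 and 25.0 in lin-65 on cco-1 RNAi. Both strains on cco-1 RNAi and lin-65 on empty vector thus lay in a similar range, with N2 on empty vector below them. The difference of the log2 fold changes was -2.16 ± 0.36 (edgeR adjusted p = 0.130). tbb-6 read 2.37, 1.90 and 3.38 CPM in N2 on empty vector and 6.04, 12.2 and 13.9 in lin-65, against 13.3, 13.2 and 13.9 in N2 and 16.3, 18.2 and 16.9 in lin-65 on cco-1 RNAi. Its difference between diets was -1.71 ± 0.41 (adjusted p = 0.818).

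**Figure D5:**
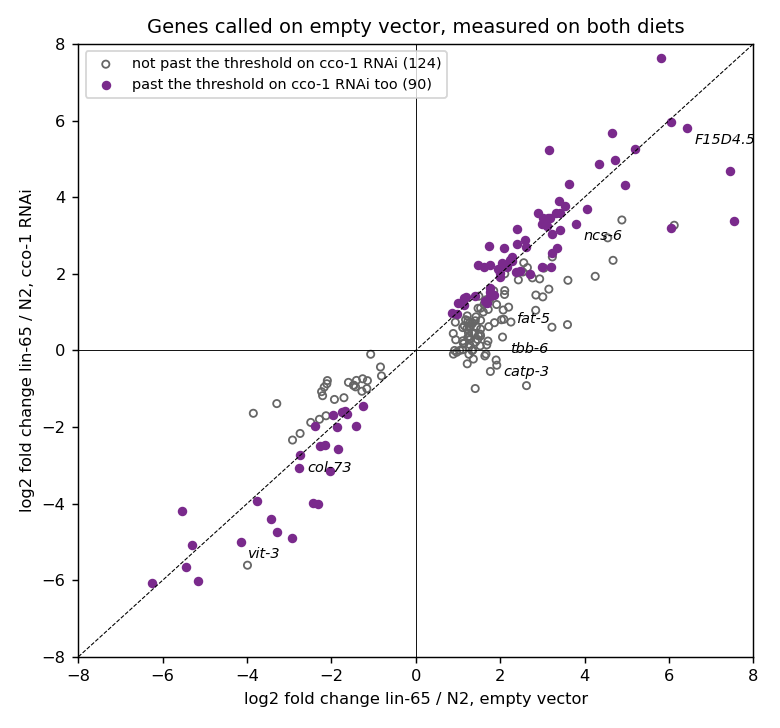
Log2 fold change of lin-65 over N2 on empty vector (horizontal axis) and on cco-1 RNAi (vertical axis) for the 214 genes called on empty vector; filled points, 90 genes, also passed on cco-1 RNAi and the dashed line marks equal values. The 53 lower genes all lie below 0 on both axes, while 146 of the 161 higher genes lie above 0 on cco-1 RNAi.

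The met-2(ok2307) mutant on empty vector was compared with the same 3 N2 libraries, so its values stand beside those of lin-65 and no overlap between the lists is drawn. That comparison called 4616 genes (30.5%), and a direct comparison of lin-65 with met-2 called 4347 (28.8%). F15D4.5 averaged 165 CPM in met-2, a log2 fold change over N2 of 6.87, and did not pass between the mutants (lin-65 minus met-2 -0.43, edgeR adjusted p = 0.158). C38D9.2, higher in lin-65 at 10.6, 10.4 and 9.39 CPM against 1.48, 0.949 and 0.599 in N2, averaged 235 CPM in met-2 (lin-65 minus met-2 -4.53, edgeR adjusted p = 2.17e-08). ncs-6 averaged 5.22 CPM in met-2 and was higher in lin-65 than there (2.98, edgeR adjusted p = 8.25e-07). cin-4 averaged 0.581 CPM in met-2, and its difference between the mutants of 0.02 on the log2 scale did not pass (adjusted p = 0.989).

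Some of the genes lowered in lin-65 were not low in met-2. col-73 averaged 1980 CPM in met-2 (lin-65 minus met-2 -3.21, edgeR adjusted p = 2.18e-07). F59C6.18 averaged 160 CPM, above N2 by a log2 fold change of 2.77 (lin-65 minus met-2 -8.21, adjusted p = 2.17e-08). Y49G5A.1 averaged 36.6 CPM, above N2 by 2.13 (-7.28, adjusted p = 1.42e-06), and exh-1 36.4 CPM, above N2 by 1.24 (-3.51, adjusted p = 1.85e-06). In these 4 genes the mutants thus differed from each other. Among the vitellogenins, vit-3, vit-4 and vit-5 averaged 29.2, 34 and 77.8 CPM in met-2, and their differences between the mutants of -0.26, -0.16 and -0.44 did not pass (adjusted p = 0.697, 0.811 and 0.489).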

How the data were processed

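PolyA RNA of whole L4 worms was sequenced in 18 libraries, made with the ScriptSeq v2 kit, per the labels' protocols. The submitters' processing notes name Bowtie 0.12.7 and DESeq with no role. Which build, gene set, counter and strand option the authors used is not given in the sources used here. Raw counts of reads for each gene model were deposited by the authors, and 0 columns of sample values were left unused. Each library lists 20505 models, of which 20074 were matched by sequence name to WBcel235 (Ensembl 115) and 431, with 0.148% of counts, were kept by sequence name.

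Genes passing filterByExpr by group (15110) were fitted with edgeR 4.0.16 in R 4.3.3 (TMM, robust quasi-likelihood, 6 group means over 18 libraries, two-sided, Benjamini-Hochberg over all genes, threshold 0.05). SE is the log2 fold change over the root of F. Totals of the 6 libraries ran from 7081672 to 19261705 counts, and 3 counts were 0.163 to 0.445 CPM. Floors cover counting error only. Replicates differed by more than counting noise. Alternatives used DESeq2 1.42.0, limma 3.58.1 voom weights, other size factors and filters, fewer libraries and a replicate block; the fit on 5 libraries was added after seeing the data. On simulated counts for 15110 genes of this comparison, 11, 43, 46 and 48 of 50 genes changed 2-, 4-, 8- and 16-fold were called, with 9 false calls. The simulation drew each library independently from a common mean profile plus the set folds. It held no library that stands apart and no shift by transcript length, so its rates may not hold for the measured libraries.

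The comparison, the 46 gene lists (general knowledge or symbol patterns) and the naming rule were chosen with earlier results of these data known. The rule names lin-65, met-2, cox-5B, hsp-6 and hsp-60. It adds the 15 highest and 15 lowest fold changes with a symbol and 5 each without one, among called genes with separated libraries and at least 5 CPM in the higher group. It also adds up to 4 genes per list by smallest p and genes near 0 in one strain. Genes of runs, the enu-3 family, catp-3 and the members listed by family were named after their values were seen. Sequences of the genes were not analysed here.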

Additional observations from a re-analysis of the deposited data

How the results depend on the processing

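Against 214 called genes (161 higher, 53 lower), 16 libraries, without lin-65 empty vector replicate 1 and met-2 cco-1 RNAi replicate 1, gave 530 (363 and 167). DESeq2 gave 392 (257 and 135), voom with quality weights 1068 (645 and 423), the 6 libraries alone 51 (35 and 16) and 5 libraries without lin-65 replicate 1, added after seeing the data, 288 (188 and 100). Leaving out 1 library gave 99 to 202 called, 67 to 150 higher and 32 to 52 lower genes, with 134, 99 and 106 called without N2 replicates 1, 2 and 3 and 136 without lin-65 replicate 3. The replicate block gave 240 calls, and with the 6 libraries alone 47 (29 and 18). Same-numbered libraries of the 2 strains correlated in their deviations at 0.341, 0.0779 and 0.331, and differently numbered ones at -0.378 to 0.269. For each N2 library the same-numbered lin-65 library correlated highest. The main fit did not take the numbers as pairs, and whether libraries of the same number share a batch was not tested. Other size factors gave 194 calls, the filter of 1 CPM 205 and no filter 207. Genes passing on both diets numbered 90, and 183 with 16 libraries, 160 with DESeq2 and 431 with voom; leaving out 1 library gave 62 to 87. The difference between diets called 23 genes with 16 libraries, 6 with DESeq2 and 33 with voom, and 0 under the other alternatives that held both diets. The causes were not tested, beyond fewer libraries entering some fits. Each of the 214 genes kept its sign under each alternative that gave it a value. Signs changed for hsp-6 (-0.05 without N2 replicate 1, and -0.18 to 0.42 over the libraries left out, lowest without lin-65 replicate 2) and hsp-60 (-0.19 with 16 libraries, -0.20 with 5, -0.17 with voom, and -0.19 to 0.20 over the libraries left out, lowest without lin-65 replicate 1). Of 46 list medians, 19 moved by at least 1 SD under some alternative. With 3 libraries a group, most 2-fold changes were missed in the simulation, which held no library that stands apart.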

Other observations

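The idp genes, a set known by the shared symbols idpa, idpb and idpc, were grouped here after their values were seen. On empty vector 5 of 15 tested members were higher in lin-65, against 1.07% of all genes. Their median log2 fold change was 1.11, against 0.06 over all genes tested. Without lin-65 replicate 1, 2 were higher, where 150 of all 15110 genes were. On cco-1 RNAi none was higher, where 0.635% of all genes were. The median there was 0.01, both for the set and over all genes. idpc-4 read 18.8, 15.1 and 16.2 CPM in N2 and 46.8, 35.5 and 37.5 CPM in lin-65 on empty vector, and 24.2, 34.4 and 22.3 CPM in N2 and 23.8, 26 and 25.4 CPM in lin-65 on cco-1 RNAi. Its difference between diets had an edgeR adjusted p of 0.907 and did not pass.

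Both cin-4 and R03D7.2, which fell in lin-65, lie on chromosome II, 3891 kb apart, with 2 called genes among the 779 tested between them. Of the 70 listed histone genes, 31 were tested and none passed; 24 had 0 counts in all 6 libraries.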
